A study of Mus musculus with 10 samples.

Results

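The 56 genes described here encode proteins that copy DNA in S phase or separate the chromosomes in mitosis. They were taken by name from the 25965 features of the expression table of male mouse embryonic stem cells (mESCs), and each of the 56 names was present once. They comprise 38 replication genes, from the MCM helicase to thymidylate synthase, and 18 mitotic genes, from Cdk1 onward. The rule that lists them uses names only, although it was set with earlier results of these data known. The study described a shorter doubling time for male mESCs in its suspension culture than in gelatin culture, so the question set for these genes was whether their transcripts differed between the cultures and whether replication and mitotic genes differed to the same extent.

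RNA-seq covered 10 libraries of male mESCs of the C57BL/6 strain, all expanded in 2i medium, a defined medium with inhibitors of MEK and GSK3 that holds mESCs in the naive state. Per the study, 2 lines were derived in suspension culture and each was divided at passage 0 (p0). One part of each line was kept in the study's suspension culture with daily passaging (Keniry2022, labelled New or Off) and the other attached to gelatin and passaged less often (Mulas2019, labelled Old or On), with cells collected at passages 10 and 20 (p10 and p20). Each of the 5 groups (p0, p10 Keniry2022, p20 Keniry2022, p10 Mulas2019, p20 Mulas2019) held 2 libraries, 1 per line, so the 4 libraries of a method were 2 lines at 2 passages. The methods also differ in plating density, plate and volume of medium, and no engineered genetic alteration is given for any group. By DNA-seq of these cells, the study reported genome regions of changed representation against the starting cells in gelatin culture and not in suspension culture. It also reported that a line lost its Y chromosome during derivation, before the cultures were divided. The part of these DNA changes in the results below was not tested. The p0 cells had been derived under Keniry2022 conditions, so p0 and the Keniry2022 groups share a culture method.

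Library totals ranged from 24053995 to 30236822 reads, and a member had between 379 reads (Gins3) and 42900 reads (Top2a) in a library, which sets the counting error of its values. Exons of 11 members overlap another feature of the table, and reads of these 11 cannot be assigned with confidence: Mcm7, Orc1, Orc2, Orc6, Gins2, Rfc2, Rfc4, Rfc5, Pole, Fen1 and Cdc20. All 8 markers of mESCs were above a log2 value of 0 in every library, with summed levels of 1509 to 1749 RPKM at p0, 1409 to 1543 under Keniry2022 and 1298 to 1322 under Mulas2019. Pou5f1, Nanog and Zfp42 were lower in every Mulas2019 library than in every Keniry2022 library. Klf4 was higher in every Mulas2019 library, and Sox2, Esrrb, Tfcp2l1 and Dppa3 overlapped between the methods. The summed level of 5 primitive endoderm markers stayed between 1.42 and 2.39 RPKM, that of 4 mesoderm markers between 2.01 and 3.62 RPKM, that of 4 neuroectoderm markers between 0.828 and 1.03 RPKM and that of 4 fibroblast markers between 0.334 and 1.01 RPKM. Of the 4 trophoblast markers 3 were at or below a log2 value of 0 throughout, and Tfap2c, which mESCs also express, set a sum of 18.6 to 22.3 RPKM at p0, 20.3 to 24.9 under Keniry2022 and 24.3 to 32.4 under Mulas2019. The fibroblast marker Postn had 0 reads in every library. The part of these shifts in the results below was not tested. The summed level of 4 Y-linked genes was 34.2 to 62.8 RPKM in 1 library of each group and 0.114 to 1.185 RPKM in the other. The libraries of low level may be those of the line that the study reported to have lost its Y chromosome. The library with the high level was replicate 2 in every group except p20 Keniry2022, where it was replicate 1, so replicate numbers of that group may not mark the same line as elsewhere.

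The p0 libraries stood apart. The median absolute difference of the 56 genes between replicates was 0.29 on the log2 scale at p0, against 0.035 to 0.064 in the other 4 groups. Counts of calls that use the p0 libraries, and the differences from p0 of the genes named for them, are therefore given with and without each of them.

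As background, replication begins when the origin recognition complex, Cdc6 and Cdt1 load the MCM helicase onto DNA in G1, and geminin (Gmnn) blocks Cdt1 so that no origin is licensed again in the same cycle. Cdc45 and the GINS complex then switch the helicase on, polymerase alpha with primase lays down primers, and polymerases epsilon and delta extend the leading and lagging strands on the PCNA clamp. Chromosome separation follows under the kinases Cdk1, Plk1 and the Aurora kinases, with the spindle checkpoint holding the cell until each kinetochore is attached. Genes of the first set are classic targets of E2F factors in late G1, and many of the second are controlled through the cell cycle homology region (CHR) by the MuvB complex with B-Myb and FoxM1. Mouse ESCs have a short G1 and spend much of the cycle in S phase.

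The promoters are shown first so that the words for E2F and CHR, named above, can be read in members of both sets. RefSeq (GRCm38.p6) gave a promoter for 47 of the 56 genes, from 250 bases before the start site to 50 after it. The E2F words searched were TTGGCGC, the variant TTCGCGC, the variant TTCCCGC and the variant TTGCCGC. The CHR words were TTTGAA and also TTCGAA, and the third kind of word was CCAAT, each on both strands. The first E2F word read on the other strand, GCGCCAA, can overlap CCAAT when a T follows it. An E2F word was present in 58.1% of 31 replication promoters, 6.25% of 16 mitotic promoters and 9.69% of all 27025 promoters of this length. A CHR word was present in 19.4% of the replication promoters, 75.0% of the mitotic promoters and 19.4% of all promoters. CCAAT was present in 67.7% and 75.0% of the replication and mitotic promoters and in 37.9% of all promoters. A match is only a match of letters and is not evidence that a factor binds.

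The 6 promoters printed here belong to 2 replication genes (Rpa2 and Pola1) and 2 mitotic genes (Cdk1 and Cdc20) higher under Keniry2022. The other 2 are the genes lower under Keniry2022 that had a promoter in RefSeq (Pola2 and Kif23). The 2 mitotic genes called higher were taken among promoters with a CHR word, so its presence there was set by the choice. Fen1 and Ttk are not printed, although their p was smaller than that of Pola1 and of Cdc20 respectively. The window of Fen1 held no E2F word and that of Ttk no CHR word, so the printed windows look more regular than an order by p. Each printed sequence is the 150 bases before the start site, 5′ to 3′ on the strand of the gene, with the letters of E2F, CHR and CCAAT words in capitals. They lie at chr4:132768210-132768359 (Rpa2, plus strand), chrX:93632156-93632305 (Pola1, minus strand), chr10:69352913-69353062 (Cdk1, minus strand), chr4:118437344-118437493 (Cdc20, minus strand), chr19:5964207-5964356 (Pola2, minus strand) and chr9:61946800-61946949 (Kif23, minus strand) of GRCm38.p6.
Rpa2: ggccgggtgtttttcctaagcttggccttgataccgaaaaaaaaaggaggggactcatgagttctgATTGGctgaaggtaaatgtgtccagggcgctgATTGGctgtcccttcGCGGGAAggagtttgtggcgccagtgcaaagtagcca
Pola1: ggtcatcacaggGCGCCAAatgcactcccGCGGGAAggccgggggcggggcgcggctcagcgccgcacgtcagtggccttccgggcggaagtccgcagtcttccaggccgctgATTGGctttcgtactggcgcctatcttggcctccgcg
Cdk1: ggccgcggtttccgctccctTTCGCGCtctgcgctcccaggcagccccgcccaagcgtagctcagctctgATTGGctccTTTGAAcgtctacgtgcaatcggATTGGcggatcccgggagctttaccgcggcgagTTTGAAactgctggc
Cdc20: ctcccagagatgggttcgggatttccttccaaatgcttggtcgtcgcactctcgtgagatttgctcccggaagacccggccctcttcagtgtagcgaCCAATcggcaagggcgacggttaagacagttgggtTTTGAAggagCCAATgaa
Pola2: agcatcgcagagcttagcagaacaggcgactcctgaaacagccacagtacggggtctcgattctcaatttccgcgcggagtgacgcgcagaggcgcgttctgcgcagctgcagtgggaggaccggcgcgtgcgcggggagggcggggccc
Kif23: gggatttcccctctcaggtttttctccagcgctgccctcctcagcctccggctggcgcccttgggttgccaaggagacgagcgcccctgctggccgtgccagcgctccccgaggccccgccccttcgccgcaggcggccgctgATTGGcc
The windows of Rpa2 and Pola1 hold E2F words (1 and 2) beside CCAAT words. That of Cdk1 holds all 3 kinds, with 2 CHR words, 1 of them close to the start site. The Cdc20 window holds 1 CHR word between 2 CCAAT words. The window of Pola2 had no match and that of Kif23 a single CCAAT word, read on the other strand as ATTGG. The promoter of Kif23 also held a CHR word, outside the printed window. Among the 27 promoters of members called higher, 44.4% held an E2F word and 37.0% a CHR word, against 38.9% and 38.9% among the 18 promoters of members not called. CCAAT stood in 66.7% of the first and 77.8% of the second. Not all members called higher held the word of their set. Fen1, of smaller p than Pola1 between the methods, held a CHR word and no E2F or CCAAT word. Mad2l1, with the smallest p of the mitotic genes, held none of the 3 kinds. The RefSeq start lay 224 bases (Fen1) and 169 bases (Mad2l1) from the 5′ end of the deposited feature, so these promoters may miss bases near that end. The CHR word of Ttk lay outside the 150 bases before the start site.

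All values below are log2 RPKM, the deposited scale, where a difference of 1 is a doubling of reads per kilobase of exon at a fixed library size. Values are given in the order p10 replicate 1, p10 replicate 2, p20 replicate 1, p20 replicate 2 within a method. RNA came from whole cultures, so more cells in a cycle phase and more RNA of a gene per cell cannot be told apart. A gene is called when its Benjamini-Hochberg adjusted p, over all features tested by limma, is below 0.05.

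**Figure D1:**
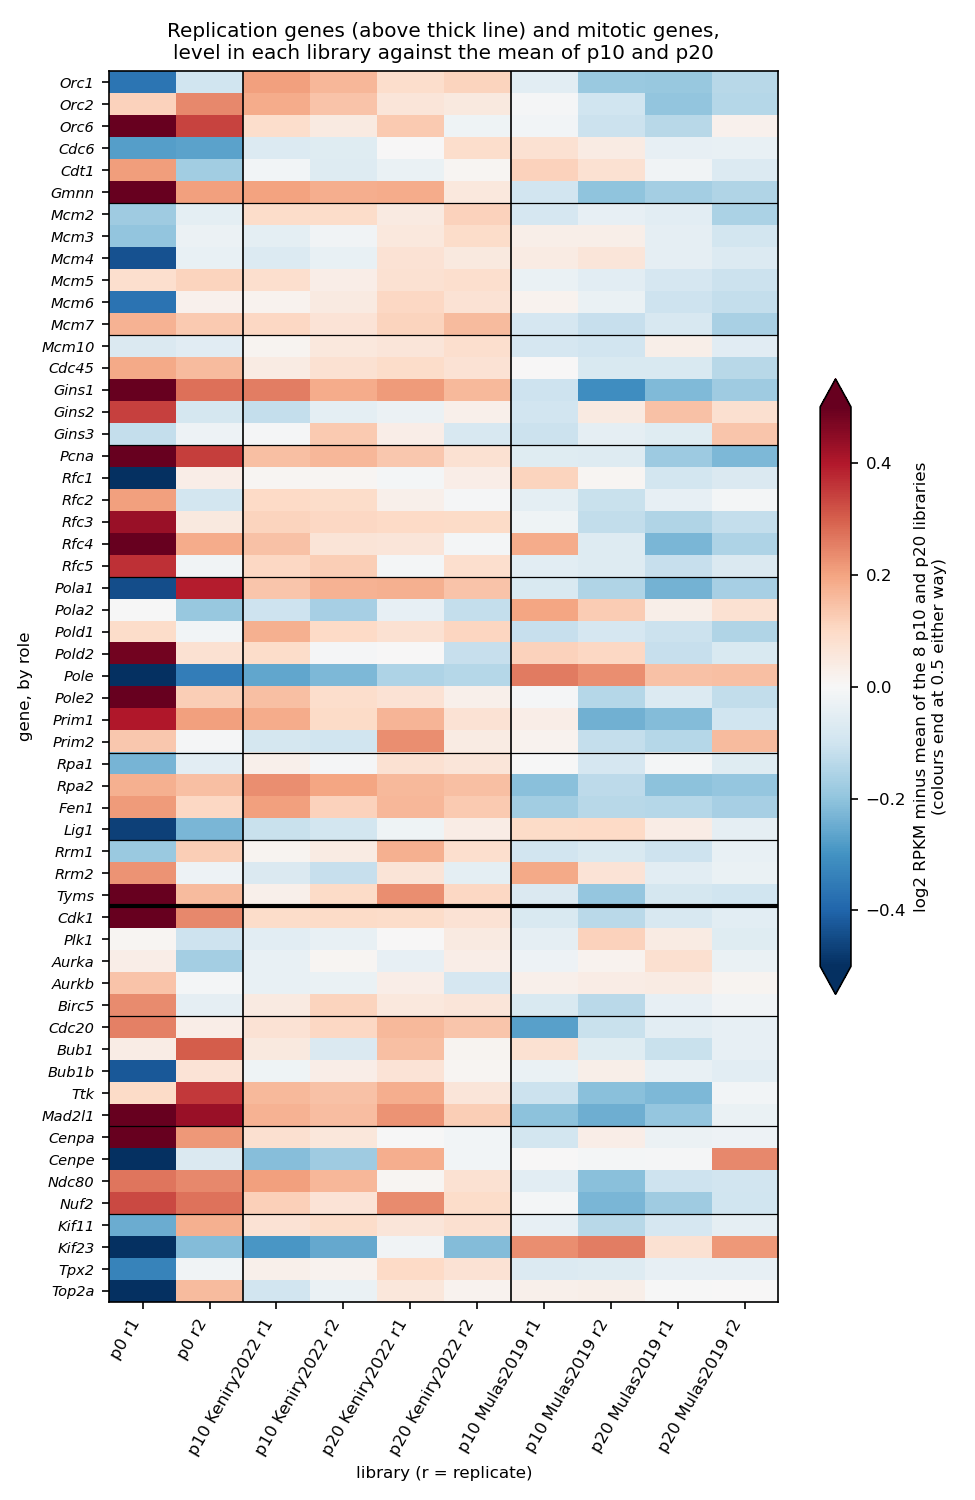
Level of each of the 56 genes (rows, by role, with the replication genes above the thick line) in each of the 10 libraries (columns), as log2 RPKM minus the mean of the 8 libraries at p10 and p20. Colours end at 0.5 either way. The p0 replicate 1 column holds the strongest colours in both directions, while Pole and Kif23 run opposite to most genes between the methods.

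With p10 and p20 pooled, 31 of the 56 genes were higher and 3 lower under Keniry2022 than under Mulas2019, and 22 were not called. The changes were small. The largest rise was 0.41 on the log2 scale (Gins1, 1.32-fold) and the largest fall was 0.39 (Pole and Kif23, each 1.31-fold higher under Mulas2019). Over all 11654 features tested, 51.5% were called, 25.9% higher and 25.5% lower, with a median difference of -0.0030. The 56 genes had a median of 0.13, with 55.4% called higher and 5.36% called lower. In 30 genes each of the 4 Keniry2022 libraries exceeded each of the 4 Mulas2019 libraries and in 3 genes the reverse held, where 23.1% and 23.4% of all features did so. In the 23 other genes the libraries of the methods overlapped.

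Much of that lean is shared by features of a like level. In a band of mean log2 values from 4 to below 8, chosen after the data were seen, 59.6% of 3769 features were called, 45.3% higher and 14.2% lower, with a median of 0.10. The 52 members in the band had 55.8% called higher, 5.77% called lower and a median of 0.13. After quantile normalisation, which gives every library the same distribution of values, 28% of the features in the band were called higher and 24.6% lower, and of the members in the band 14 were higher and 11 lower. Over all 56 genes that scaling called 16 higher and 11 lower, so the share of calls that were higher fell from 91.2% to 59.3%. The 15 genes called higher on the deposited scale and not after it were Mcm2, Mcm5, Mcm6, Mcm7, Mcm10, Cdc45, Rfc2, Rfc5, Pole2, Rrm1, Cdk1, Birc5, Cdc20, Kif11 and Tpx2, and the 8 called lower only after it were Cdt1, Mcm4, Lig1, Rrm2, Plk1, Aurka, Aurkb and Top2a. Correcting for the length and GC content of exons left 31 higher and 4 lower, so 88.6% of the calls were higher, beside 58.35% of the calls over all features. In the band that correction called 46.4% of features higher and 10.7% lower, with a median of 0.11. Of the members in the band it called 57.7% higher and 7.69% lower, with a median of 0.14. Higher under the deposited scale and both others were 14 genes (Orc1, Orc2, Gmnn, Gins1, Pola1, Pold1, Prim1, Rpa2, Fen1, Tyms, Ttk, Mad2l1, Ndc80 and Nuf2), and lower under all of them were Pola2, Pole and Kif23.

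**Figure D2:**
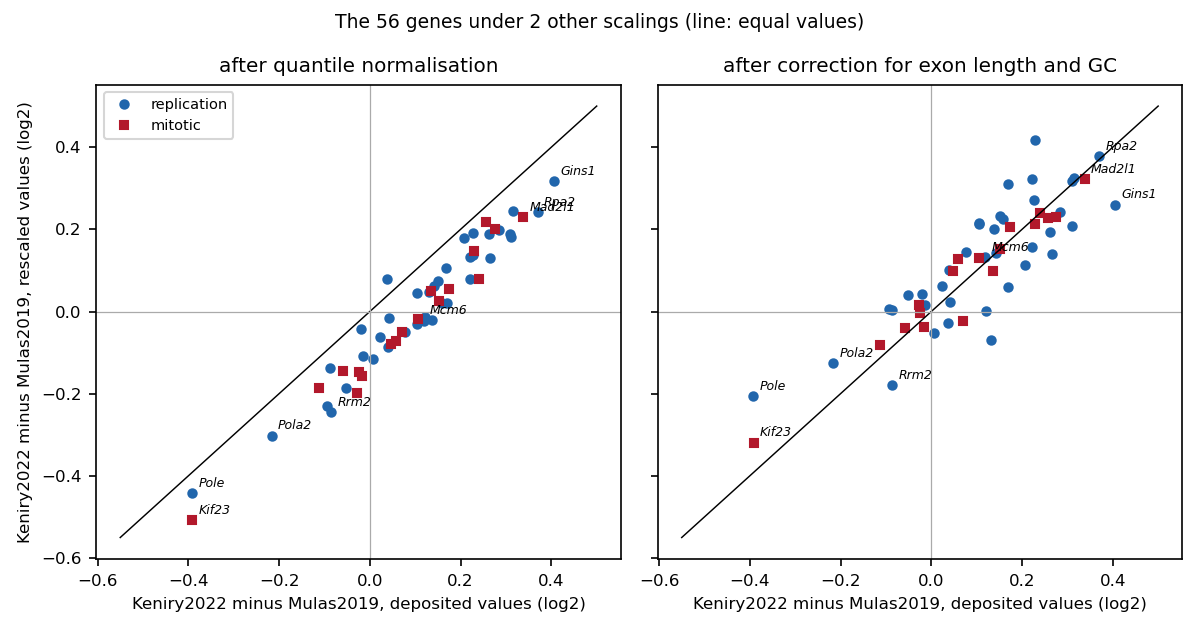
Difference between the methods (Keniry2022 minus Mulas2019, log2, p10 and p20 pooled) for the 56 genes on the deposited scale (horizontal) and on another scaling (vertical), with circles for replication genes, squares for mitotic genes and a line of equal values. After quantile normalisation nearly the whole cloud sits under the line, and the replication and mitotic medians are 0.033 and -0.034. The correction for exon length and GC scatters the points around the line, with medians of 0.14 and 0.11.

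Replication and mitotic genes leaned the same way on the deposited scale. Of the 38 replication genes 22 were higher, 2 lower and 14 not called, with a median of 0.13. Of the 18 mitotic genes 9 were higher, 1 was lower and 8 were not called, with a median of 0.088. Quantile normalisation took these medians to 0.033 and -0.034, so the mitotic median changed sign under that scaling. Averaged over the 38 replication genes, the 4 Keniry2022 libraries lay between 5.58 and 5.61 and the 4 Mulas2019 libraries between 5.44 and 5.52, without overlap. Averaged over the 18 mitotic genes, they lay between 5.71 and 5.78 and between 5.64 and 5.68, also without overlap. The replication minus mitotic average ran from -0.17 to -0.12 under Keniry2022 and from -0.23 to -0.13 under Mulas2019, so on this contrast the methods overlapped. The p0 libraries, at -0.087 and -0.22, spanned almost the whole of that range.

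**Figure D3:**
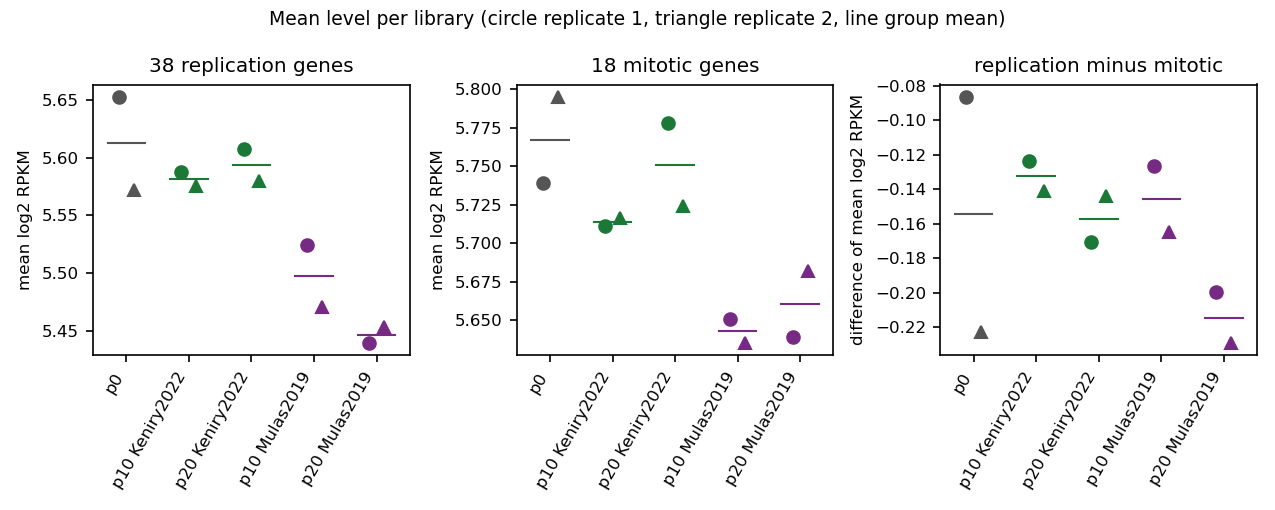
Mean log2 RPKM of the 38 replication genes and of the 18 mitotic genes, and their difference, in each library (circle replicate 1, triangle replicate 2, line group mean). The Keniry2022 libraries lie above the Mulas2019 libraries in the first 2 panels and overlap them in the third.

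Among the 6 genes of origin recognition and licensing, 3 were higher under Keniry2022 and 3 were not called. Gmnn, the inhibitor of Cdt1, stood at 6.65, 6.63, 6.63 and 6.50 under Keniry2022, at 6.35, 6.24, 6.28 and 6.30 under Mulas2019 and at 7.40 and 6.65 at p0. Every Keniry2022 library was above every Mulas2019 library, and the difference was 0.31 (SE 0.041, adjusted p = 0.000257). Orc1, the largest subunit of the origin recognition complex, was at 5.31, 5.27, 5.19 and 5.21 under Keniry2022 and 5.05, 4.92, 4.91 and 4.96 under Mulas2019. Its groups did not overlap either, and it differed by 0.28 (SE 0.043, adjusted p = 0.000501). Orc2 rose by 0.22 (adjusted p = 0.004). The loading factor Cdc6 averaged 3.86 ± 0.072 under Keniry2022 and 3.88 ± 0.060 under Mulas2019 (SD, n = 4), a difference of -0.020 with a 95% interval from -0.13 to 0.088. Cdt1 differed by -0.052 and Orc6 by 0.12, neither called.

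All 6 subunits of the MCM helicase had a positive difference and 4 of them were called. Mcm7 was at 6.05, 6.02, 6.06 and 6.10 under Keniry2022 against 5.86, 5.83, 5.87 and 5.78 under Mulas2019, the smallest p of the 6 (difference 0.22, SE 0.034, adjusted p = 0.000557). Its exons overlap those of Ap4m1 and Cops6. Mcm2 was at 7.75, 7.75, 7.70 and 7.77 and 7.57, 7.61, 7.60 and 7.50 (difference 0.17, SE 0.035, adjusted p = 0.00294), with all Keniry2022 libraries higher. Mcm5 and Mcm6 rose by 0.14 and 0.12, and after quantile normalisation they had differences of -0.020 and -0.022 and were not called. The call of Mcm6 was also lost without any 1 of 5 libraries (p10 Keniry2022 replicate 2, either p20 Keniry2022 library or either p20 Mulas2019 library). Mcm4 averaged 6.72 ± 0.067 and 6.71 ± 0.063 (SD, n = 4), with a difference of 0.0062 and a 95% interval from -0.092 to 0.10. Mcm3 differed by 0.040. Subunits of a single hexamer therefore differed by between 0.0062 and 0.22.

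The helicase activators contained the largest rise of all 56 genes. Gins1, a subunit of the GINS complex, was at 5.25, 5.18, 5.21 and 5.15 under Keniry2022, at 4.89, 4.68, 4.77 and 4.81 under Mulas2019 and at 5.86 and 5.27 at p0. The methods were separated by more than the spread of either group, with a difference of 0.41 (SE 0.047, adjusted p = 0.000134). The 2 other listed subunits of the same 4-part complex did not follow: Gins2 differed by -0.087 and Gins3 by 0.038, neither called. Gins3 was the least abundant member, at 2.85 ± 0.088 under Keniry2022 and 2.81 ± 0.11 under Mulas2019 (SD, n = 4). Cdc45, the partner of GINS and MCM in the active helicase, rose by 0.14 (SE 0.037, adjusted p = 0.00909). Mcm10 rose by 0.10 (adjusted p = 0.0447), which became an adjusted p of 0.063 with the replicate number as a block (0.061 with the p20 Keniry2022 numbers exchanged), and lost its call when any of 6 libraries was left out, all except p10 Keniry2022 replicate 1 and p20 Mulas2019 replicate 1.

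Of the sliding clamp and its loader, 4 of 6 genes were higher. Pcna, the clamp itself, was at 6.30, 6.32, 6.29 and 6.23 under Keniry2022, 6.09, 6.09, 5.97 and 5.93 under Mulas2019 and 6.97 and 6.50 at p0, so both methods lay below both p0 libraries. Between the methods it differed by 0.27 (SE 0.045, adjusted p = 0.000921), and after the correction for exon length and GC by 0.14 (adjusted p = 0.0572). Rfc3, a subunit of the loader, was at 4.05, 4.04, 4.04 and 4.03 and 3.92, 3.82, 3.79 and 3.82, with a Keniry2022 range narrower than that of any group named so far (difference 0.21, SE 0.039, adjusted p = 0.0018). The same correction reduced its difference to 0.11 (adjusted p = 0.0525). Rfc5 rose by 0.15 and Rfc2 by 0.10. Rfc2 had a difference of -0.030 after quantile normalisation and lost its call without any 1 of 5 libraries (each p10 library or p20 Mulas2019 replicate 1). With the replicate block its adjusted p was 0.0513 (0.0538 with the numbers exchanged). Rfc1, the large subunit, averaged 5.26 ± 0.017 and 5.24 ± 0.094 (SD, n = 4), a difference of 0.023 with a 95% interval from -0.080 to 0.13, and Rfc4 differed by 0.13 without a call.

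The polymerases and primase held calls in both directions, 4 higher and 2 lower of 8. Pole, the catalytic subunit of polymerase epsilon, was at 4.12, 4.15, 4.22 and 4.23 under Keniry2022, at 4.64, 4.61, 4.52 and 4.53 under Mulas2019 and at 3.33 and 4.03 at p0. It was the lowest in p0 and the highest in every Mulas2019 library, and its difference was -0.39 (SE 0.044, adjusted p = 0.000119). Its exons overlap those of Gm15792. The accessory subunit Pole2 went the other way, with a rise of 0.17 (SE 0.043, adjusted p = 0.00832), which the correction for exon length and GC reduced to 0.060 (adjusted p = 0.285).

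Polymerase alpha was also divided, with the roles of the subunits reversed. Pola1, its catalytic subunit, was at 4.74, 4.77, 4.78 and 4.74 under Keniry2022 and 4.52, 4.45, 4.36 and 4.43 under Mulas2019, a rise of 0.31 (SE 0.040, adjusted p = 0.000212). Its p0 libraries were at 4.16 and 4.99, so the p0 pair enclosed all 8 others. Pola2, its regulatory subunit, was at 4.98, 4.92, 5.04 and 4.97 and 5.28, 5.21, 5.11 and 5.16, a fall by 0.22 (SE 0.045, adjusted p = 0.0028). Prim1, the catalytic subunit of primase, rose by 0.26 and its partner Prim2 differed by 0.041 without a call. Pold1, which carries the activity of polymerase delta, rose by 0.23 (adjusted p = 0.000492), while Pold2 averaged 5.41 ± 0.085 and 5.42 ± 0.12 (SD, n = 4), with a difference of -0.014 and an interval from -0.16 to 0.13.

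Ratios of partner genes within a library do not change when a library is scaled by a single factor. They were looked at for 8 pairs chosen after the values were seen, so they are given as a description with no test. The log2 ratio of Pola1 to Pola2 was between -0.27 and -0.15 in the Keniry2022 libraries and between -0.76 and -0.73 in the Mulas2019 libraries. That of Pole to Pole2 was between -0.57 and -0.33 and between 0.051 and 0.21. These are the widest gaps among the 8 pairs, 0.53 and -0.56 between the means of the methods. Exon lengths recovered from the deposited values differ within both pairs (8813 and 2872 bases, 9590 and 1695 bases), which a single factor does not correct. The correction for exon length and GC used GENCODE lengths instead. These are 8813 and 8294 bases for the first pair, so it could adjust little for length there, and 11160 and 2881 bases for the second. After the correction for exon length and GC, the genes differed between the methods by 0.33 (Pola1), -0.13 (Pola2), -0.21 (Pole) and 0.060 (Pole2). On the deposited scale these were 0.31, -0.22, -0.39 and 0.17. The p0 values, -0.93 and 0.095 for the first pair and -1.71 and -0.63 for the second, differed from each other by more than the methods did. The ratio of Gmnn to Cdt1 averaged 0.52 ± 0.091 under Keniry2022 and 0.16 ± 0.085 under Mulas2019 (SD, n = 4), and that of Rpa2 to Rpa1 -0.054 ± 0.068 and -0.35 ± 0.073 (SD, n = 4). Pold1 to Pold2 and Rrm1 to Rrm2 each differed by 0.24 without overlap. Prim1 to Prim2 overlapped between the methods, as did Ndc80 to Nuf2, which averaged 0.57 ± 0.15 and 0.60 ± 0.048 (SD, n = 4).

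Of the 4 genes of single strand binding and Okazaki fragment processing, Rpa2 and Fen1 were higher. Rpa2, a subunit of the protein that coats single-stranded DNA, was at 6.29, 6.25, 6.22 and 6.20 under Keniry2022, 5.84, 5.92, 5.85 and 5.86 under Mulas2019 and 6.23 and 6.21 at p0. The Keniry2022 libraries lay around the p0 values and the Mulas2019 libraries below both. The difference of 0.37 (SE 0.034, 1.29-fold) had the smallest adjusted p of the 56 genes, 4.95e-05. Fen1, the nuclease that removes the flaps of Okazaki fragments, followed the same order, at 6.06, 5.97, 6.02 and 5.99, 5.68, 5.72, 5.71 and 5.69 and 6.07 and 5.96 (difference 0.31, SE 0.032, adjusted p = 8.77e-05). The exons of Fen1 overlap those of Gm10143. Rpa1 differed by 0.077 (adjusted p = 0.0812). Lig1, the ligase that seals the fragments, averaged 6.37 ± 0.069 and 6.47 ± 0.067 (SD, n = 4), a difference of -0.094 with an interval from -0.20 to 0.0076.

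Deoxynucleotide supply gave 2 rises in 3 genes. Tyms, which makes thymidylate, was at 4.003, 4.07, 4.21 and 4.08 under Keniry2022 and 3.90, 3.78, 3.89 and 3.88 under Mulas2019 (difference 0.23, SE 0.051, adjusted p = 0.00421). Rrm1, the large subunit of ribonucleotide reductase, was at 6.11, 6.13, 6.27 and 6.18 and 6.0, 6.02, 5.99 and 6.05 (difference 0.16, SE 0.040, adjusted p = 0.00813). The small subunit Rrm2 differed by -0.086 (adjusted p = 0.24), and its libraries overlapped. It was called lower after quantile normalisation (-0.25) and after the correction for exon length and GC (-0.18).

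**Figure D4:**
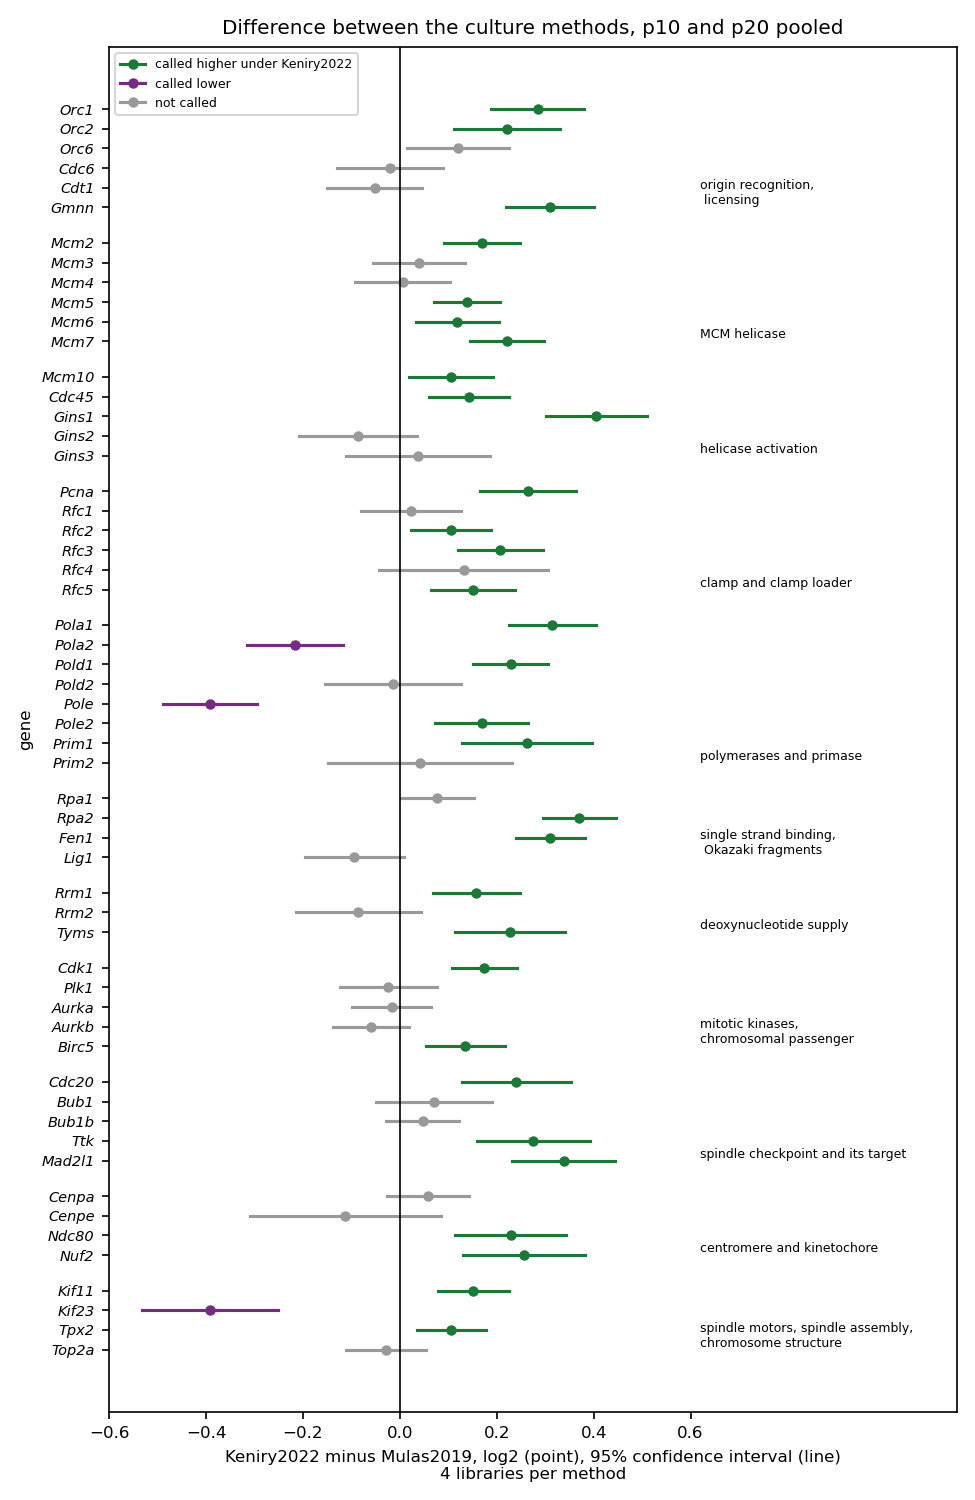
Keniry2022 minus Mulas2019 (log2, point) with its 95% confidence interval (line) for the 56 genes, by role, with 4 libraries per method. Green marks the 31 genes called higher, purple the 3 called lower (Pola2, Pole, Kif23) and grey the 22 not called.

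Of the 5 genes of mitotic kinases and the chromosomal passenger complex, 2 were higher. Cdk1, the kinase that drives entry into mitosis, was at 6.45, 6.45, 6.45 and 6.43 under Keniry2022, 6.28, 6.22, 6.28 and 6.30 under Mulas2019 and 7.12 and 6.60 at p0. Its order was p0, Keniry2022 and Mulas2019 from high to low with no overlap, and the methods differed by 0.17 (SE 0.030, adjusted p = 0.00109). After quantile normalisation the difference was 0.055 (adjusted p = 0.146). Birc5 (survivin), a subunit of the chromosomal passenger complex, was at 5.25, 5.31, 5.25 and 5.26 and 5.13, 5.07, 5.16 and 5.19 (difference 0.14, SE 0.036, adjusted p = 0.011). Aurka averaged 6.03 ± 0.038 under Keniry2022 and 6.05 ± 0.051 under Mulas2019 (SD, n = 4), a difference of -0.017 with an interval from -0.098 to 0.064. Plk1 and Aurkb differed by -0.024 and -0.059, neither called.

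In the spindle checkpoint, 3 of 5 genes were higher. Mad2l1 (Mad2), which holds back the anaphase-promoting complex, was at 5.88, 5.86, 5.93 and 5.83 under Keniry2022, 5.50, 5.46, 5.52 and 5.67 under Mulas2019 and 6.86 and 6.14 at p0, the same descending order as Cdk1. It had the largest rise of the mitotic genes, 0.34 (SE 0.048, adjusted p = 0.000367). Ttk (Mps1), the kinase at the head of the checkpoint, was at 4.87, 4.86, 4.89 and 4.77 and 4.60, 4.50, 4.49 and 4.70 (difference 0.28, SE 0.052, adjusted p = 0.00173). Cdc20, the activator that the checkpoint restrains, rose by 0.24 (adjusted p = 0.00307), and its exons overlap those of Elovl1. Bub1 averaged 5.84 ± 0.092 and 5.77 ± 0.079 (SD, n = 4), a difference of 0.070 with an interval from -0.050 to 0.19, and Bub1b differed by 0.047.

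At the centromere and kinetochore, the partners Nuf2 and Ndc80, which bind microtubules as a dimer, rose together by 0.26 and 0.23 (SE 0.056 and 0.051, adjusted p = 0.00386 and 0.00428). Nuf2 was at 4.39, 4.34, 4.51 and 4.36 under Keniry2022 and 4.26, 4.04, 4.09 and 4.17 under Mulas2019, and Ndc80 at 5.06, 5.02, 4.87 and 4.93 and 4.80, 4.65, 4.75 and 4.76. In both genes every Keniry2022 library was above every Mulas2019 library. Cenpe, a kinetochore motor, averaged 4.61 ± 0.18 and 4.72 ± 0.12 (SD, n = 4), the widest Keniry2022 spread of the 56 genes, with a difference of -0.11 and an interval from -0.31 to 0.084. The centromeric histone Cenpa differed by 0.058.

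The spindle motors differed in direction. Kif23, the motor of centralspindlin that acts in cytokinesis, was at 5.64, 5.67, 5.91 and 5.71 under Keniry2022, 6.16, 6.19, 6.004 and 6.15 under Mulas2019 and 5.41 and 5.71 at p0. All 4 Mulas2019 libraries were above all the others, and the difference was -0.39 (SE 0.063, adjusted p = 0.000723). Kif11 (Eg5), which pushes the spindle poles apart, was at 5.89, 5.91, 5.88 and 5.89 and 5.77, 5.68, 5.73 and 5.77 (difference 0.15, SE 0.033, adjusted p = 0.00357). Tpx2 rose by 0.11 (adjusted p = 0.0186), with -0.019 after quantile normalisation. Top2a, the topoisomerase that untangles sister chromatids and the member with the most reads, averaged 7.25 ± 0.066 and 7.28 ± 0.015 (SD, n = 4), a difference of -0.028 with an interval from -0.11 to 0.055.

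When the pooled contrast was taken from a model of all 10 libraries, whose spread includes the p0 pair, 11 genes kept their call: Orc1, Orc2, Mcm7, Pold1, Rpa2, Fen1, Cdc20, Ndc80 and Nuf2 higher, Pola2 and Kif23 lower. The differences themselves did not change, and 19.2% of all features were called in that model. Without p0 replicate 1, without p0 replicate 2 or without both, the same contrast called 31 genes higher and 4 lower, beside 58.2%, 58.3% and 58.6% of all features.

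At a single passage few genes passed the test in the model of all 10 libraries. At p10, 2 of the 56 genes were higher (Rpa2 by 0.38, SE 0.071, adjusted p = 0.0205, and Fen1 by 0.32, SE 0.077, adjusted p = 0.0456) and Kif23 was lower (-0.52, SE 0.12, adjusted p = 0.0379), where 8.53% of all features were called, 3.76% higher and 4.77% lower. At p20, Rpa2 alone was called (0.36, adjusted p = 0.0495), where 2.15% of all features were called. Matched in days of culture (p20 Keniry2022 against p10 Mulas2019), Rpa2 was again the single call (0.33, adjusted p = 0.0395), beside 6.43% of all features. With the replicate number as labelled as a block, 1 gene was called at p10 (Rpa2, adjusted p = 0.0369, against 0.0632 for Fen1 and 0.0541 for Kif23), and 0 genes at p20 or matched in days (Rpa2, adjusted p = 0.0858 and 0.0655). After quantile normalisation the calls at p10 were 0 higher and 3 lower, beside 4.51% and 5.35% of all features. Over the 56 genes the median difference was 0.12 in the p10 comparison, 0.14 in that of p20 and 0.12 in that matched by days, close to the pooled 0.13.

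These counts depended on the p0 pair through the shared estimate of spread. In a model of the 8 libraries without p0, 32 of the 56 genes were called at p10 (25 higher, 7 lower), 29 at p20 (27 higher, 2 lower) and 28 matched in days (24 higher, 4 lower), beside 48.3%, 36.7% and 43.4% of all features. Leaving out only p0 replicate 1, or only p0 replicate 2, gave 31, 29 and 28, beside 47.9%, 36.2% and 43.1% of all features without replicate 1 and 48.1%, 36.3% and 43.1% without replicate 2. Leaving out any other library gave no call in the 3 comparisons. The comparisons share libraries, so their values are set side by side and not as separate support.

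The method by passage interaction, which asks whether the difference between the methods changed from p10 to p20, called 0 of 56 genes by limma, and 0 at an unadjusted p below 0.05, where 3.5% of all features were below it. Between p10 and p20, 0 genes were called under either method, and 0 at an unadjusted p below 0.05, where 2.5% (Keniry2022) and 6.68% (Mulas2019) of all features were below it. The median change from p10 to p20 was 0.011 under Keniry2022 and -0.028 under Mulas2019.

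Against p0, no gene was called under Keniry2022 by limma at p10 or p20, where 0.199% of all features were called in each case. At an unadjusted p below 0.05 there were 10 and 17 of the 56 genes, beside 24.7% and 28% of all features. Under Mulas2019, 21 genes were called at p10 (4 higher, 17 lower, 33% of all features called) and 22 at p20 (4 higher, 18 lower, 29.3% of all features called). A call under 1 method and not under the other is not a test of the difference between them, which the comparisons between the methods above give. After quantile normalisation the calls under Mulas2019 were 11 higher and 8 lower at p10, beside 16% and 16.7% of all features, and 6 higher and 9 lower at p20, beside 13.2% and 14.3%. On the deposited scale, lower at both passages were Orc6, Gmnn, Mcm7, Gins1, Pcna, Pole2, Prim1, Rpa2, Fen1, Tyms, Cdk1, Mad2l1, Cenpa, Ndc80 and Nuf2, and higher at both were Cdc6, Pole, Lig1 and Kif23.

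At p10 the smallest p values under Mulas2019 belonged to Kif23 (0.61 above p0, SE 0.12, adjusted p = 0.0146), Mad2l1 (-1.02, SE 0.20, adjusted p = 0.0154) and Pole (0.94 above p0, SE 0.19, adjusted p = 0.0159). At p20 they belonged to Pcna (-0.79, SE 0.14, adjusted p = 0.0144), Rpa2 (-0.37, SE 0.071, adjusted p = 0.0173) and Mad2l1 (-0.90, SE 0.20, adjusted p = 0.0217). For the same genes the Keniry2022 differences from p0 at p20 were 0.25 for Kif23, -0.62 for Mad2l1, 0.55 for Pole, -0.48 for Pcna and -0.0096 for Rpa2, none of them called. Taken without p0 replicate 1, the Mulas2019 differences at p10 were 0.46 for Kif23, -0.66 for Mad2l1 and 0.59 for Pole, and at p20 -0.55 for Pcna, -0.35 for Rpa2 and -0.54 for Mad2l1. Without p0 replicate 2 the p10 values became 0.76, -1.38 and 1.29, and those of p20 became -1.02, -0.38 and -1.27. The Keniry2022 differences at p20 were 0.10 for Kif23, -0.26 for Mad2l1, 0.20 for Pole, -0.24 for Pcna and 0.0039 for Rpa2 without replicate 1, and 0.40, -0.98, 0.90, -0.71 and -0.023 without replicate 2. Of these 5 genes, Rpa2 moved least with the choice of p0 library. All 4 Mulas2019 libraries lay below both p0 libraries in 24 of the 56 genes and above both in 6, where 26.7% and 28.1% of all features did so. All 4 Keniry2022 libraries did so in 12 and 8, where 19.3% and 19.5% of all features did.

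The comparisons with p0 rested on which p0 library was used. Without p0 replicate 1, 2 and 3 genes were called under Keniry2022 at p10 and p20, beside 5.23% and 4.61% of all features, and 28 and 33 under Mulas2019, beside 40.5% and 37.5%. Without p0 replicate 2, 36 and 39 were called under Keniry2022, beside 64.3% and 66.5% of all features, and 45 and 45 under Mulas2019, beside 71.8% and 71.1%. In these fits the lone p0 library was assumed to vary like the other groups. With weights for library quality, 0 genes were called under Mulas2019 at either passage.

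Exon length moved with the split of the p0 pair. Across the 56 genes the difference of p0 replicate 1 minus replicate 2 had a Pearson correlation of -0.69 with log2 exon length, and across 10464 features with a known length -0.47. These are correlations across genes of the same 2 libraries, given with no test. The long transcripts Cenpe, Pola1, Top2a and Pole were lower in replicate 1 (3.48 against 4.59, 4.16 against 4.99, 6.65 against 7.42 and 3.33 against 4.03), and the short transcripts Rfc4, Gmnn, Orc6 and Gins1 were higher in it (6.27 against 5.51, 7.40 against 6.65, 7.12 against 6.45 and 5.86 against 5.27). For the difference between the methods the correlation with log2 length was -0.27 across the 56 genes and -0.18 across all features. What part length played in the p0 results was not tested beyond the correction for exon length and GC, after which 0 genes were called against p0 under Keniry2022 and 22 and 23 under Mulas2019 at p10 and p20.

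**Figure D5:**
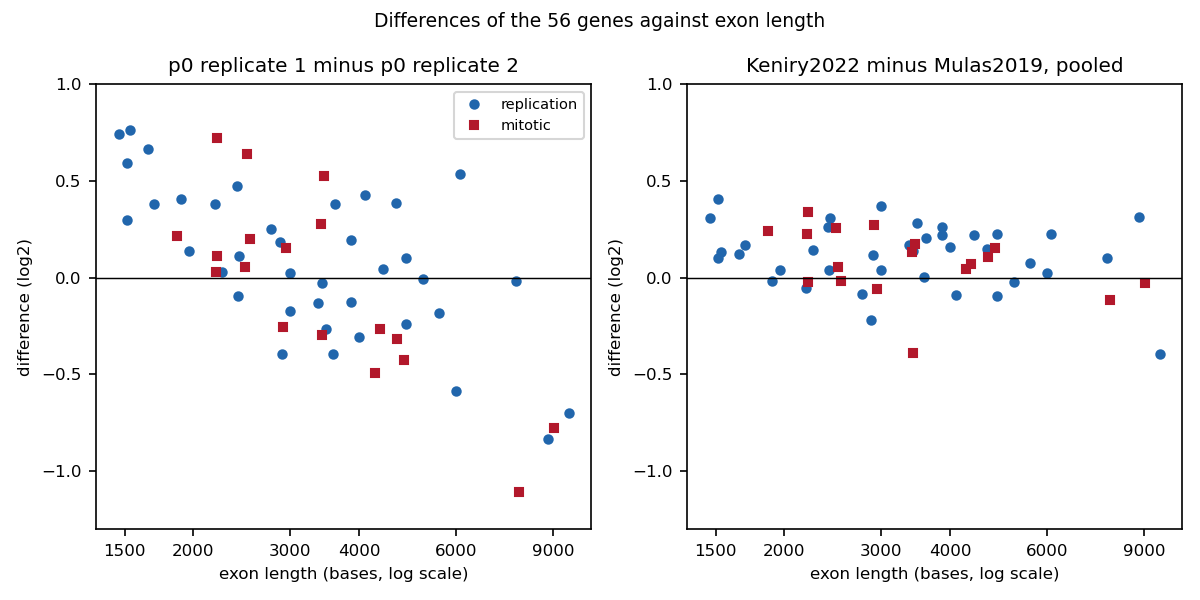
Difference (log2) against exon length (bases, log axis) for the 56 genes, for p0 replicate 1 minus replicate 2 (left) and for Keniry2022 minus Mulas2019 with both passages pooled (right). The left panel slopes down from short to long transcripts, with a Pearson correlation of -0.69 with log2 length. The right panel is flatter, at -0.27.

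Genes of the same pathways outside the 56 were read from the same pooled fit. Of 33 other replication genes, 32 were tested, 12 were higher and 2 lower under Keniry2022, with a median of 0.090. After quantile normalisation they were 10 higher and 2 lower, with a median of 0.0020. The smallest p values belonged to Gins4, the GINS subunit not among the members (0.33, SE 0.035, adjusted p = 8.77e-05), Dut, which removes dUTP (0.29, SE 0.033, adjusted p = 0.000134), and Pole4, a small subunit of polymerase epsilon (0.30, SE 0.036, adjusted p = 0.000156). With Gins4, the GINS complex had 2 subunits higher and 2 not called. Of 59 other mitotic genes, 15 were higher and 12 lower, with a median of 0.0070. After quantile normalisation these were 9 higher and 21 lower, with a median of -0.045, and after the exon length and GC correction 14 higher and 7 lower, with a median of 0.036, so the lean of this list depended on the scaling. Of all 11654 features, quantile normalisation called 5361 (50.1% of them higher) and the exon length and GC correction 5527 (58.35% of them higher). Ube2c, the ubiquitin-conjugating enzyme of the anaphase-promoting complex, rose by 0.32, the condensin subunit Smc2 rose by 0.27, and the proliferation marker Mki67 was lower (-0.30, SE 0.050, adjusted p = 0.00082).

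The transcription factors of the E2F, DREAM and MuvB families gave 3 higher and 6 lower of 19, with a median of -0.042, and 4 higher and 5 lower after the exon length and GC correction. Foxm1, an activator of mitotic genes, was lower under Keniry2022 (-0.32, SE 0.055, adjusted p = 0.000986), as were the pocket protein genes Rbl1 (-0.32, adjusted p = 0.00145) and Rb1 (-0.28, adjusted p = 0.00203), whose products restrain E2F targets. On the deposited scale the share of genes called was 43.8%, 45.8% and 47.4% in the 3 lists, against 51.5% of all features. The 9 genes named from these lists kept their direction and their call under quantile normalisation and under the exon length and GC correction.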

How the data were processed

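RNA-seq values of 10 libraries in 5 groups, set by their labels, were analysed. Per the study, HISAT2 aligned the reads to mm10 and SeqMonk quantified them, whereas TopHat2 2.0.12 is named in the submitters' notes. How strand and reads with several alignments were treated was not stated in these sources. The authors deposited log2 values in a table named for log CPM. Judged by the values they are log2 RPKM, with 0.9 reads entered for 0 reads (6624 of 25965 features in every library). Library totals were recovered from 382 single-exon features at this floor, and all 56 genes then gave whole reads within 0.1 read. No pseudocount was added. All 56 were matched by name to GENCODE vM21 (GRCm38).

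Tests used limma 3.58.1 in R 4.3.3 (moderated test with an intensity trend, two-sided) and figures Python 3.11.15. A feature was tested if its log2 value exceeded 0 in 50% or more of the fitted libraries, which all 56 genes passed. P-values were adjusted by Benjamini-Hochberg over all features tested (threshold 0.05). The methods were compared with p10 and p20 pooled, as in the study, with 4 libraries against 4 and no block, and limma with a trend took the place of voom because the values are on a log scale. Other comparisons used 1 model of 10 libraries and 5 groups. P-values measure the spread between these libraries, which come from 2 lines. The fits were tested on simulated data.

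The study divided each line between the methods, so replicate numbers should pair the libraries. Over the tested features the deviations of same-numbered libraries from their group means correlated at 0.17 to 0.63 between pairs of the other 4 groups, and at -0.70 to -0.12 between p20 Keniry2022 and each of them. A block was therefore also fitted with the 2 numbers of p20 Keniry2022 exchanged.

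The 56 genes and the lists of other genes were chosen with earlier results of these data known. In each role the 2 genes of smallest p and the 1 of largest p in the pooled comparison are given with values, as are the 5 largest differences, the 3 calls of smallest p in each other comparison and the 3 smallest p in each list of other genes. Ticrr was not a name in the table. Alternatives were another scaling, filter, trend, weighting, block or set of libraries, leaving out each library, and, chosen after seeing the data, a correction for the length and GC content of exons and the pooled contrast in the model of groups without p0 libraries. The correction took exon lengths from all exons of a gene in GENCODE vM21. Lengths recovered from the deposited values could differ from these (Mad2l1, 2203 against 8390 bases in GENCODE).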

Additional observations from a re-analysis of the deposited data

Results flagged for a closer look

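Each gene was checked for a library far from the other 3 of its method (Dixon's test, 112 groups of 4 libraries), and 3 groups were found, where chance gives about 1 in 20. Mcm5 under Keniry2022 was at 7.47 in p10 replicate 2 and between 7.52 and 7.53 in the others, a gap of 0.845 of the range. Gmnn under Keniry2022 was at 6.50 in p20 replicate 2 and between 6.63 and 6.65 in the others, a gap of 0.86 of the range. Cenpe under Mulas2019 was at 4.90 in p20 replicate 2 and between 4.65 and 4.67 in the others, a gap of 0.947 of the range. Each gap exceeds the 95% critical value for 4 libraries. Mcm5 and Gmnn were called higher under Keniry2022 with those libraries included and without them.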

How the results depend on the processing

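The pooled count of 34 members, and those of 24 replication and 10 mitotic members, stayed within 1.5 times under every alternative run except the model of all 10 libraries, which gave 11, 7 and 4 (35, 25 and 10 without either p0 library or both, chosen after seeing the data). Leaving out 1 library gave 31 to 34, 21 to 24 and 10. These totals leave out direction, which was less stable. Quantile normalisation gave 27 calls, 16 higher and 11 lower, against 31 higher and 3 lower on the deposited scale. For mitotic members it gave 4 higher and 5 lower, against 9 and 1. With the replicate block there were 32 pooled calls, as labelled or with the p20 Keniry2022 numbers exchanged. At p10 (3 calls) library quality weights gave 32, the model without p0 32, the exon length and GC correction 8 (5 higher, 3 lower) and the replicate block 1 (2 with the numbers exchanged). At p20 (1 call) these gave 27, 29, 5 and 0, and quantile normalisation, median centring, either other filter, no intensity trend and the exchanged block gave 0. Matched in days (1 call) they gave 28, 28, 5 and 0, and no intensity trend and the exchanged block 0. Leaving out 1 library gave 0 to 31 at p10, 0 to 29 at p20 and 0 to 28 matched in days, the high values without either p0 library. Against p0, leaving out 1 library gave 0 to 36 and 0 to 39 calls under Keniry2022 at p10 and p20, and 0 to 45 and 0 to 45 under Mulas2019, the high values without p0 replicate 2. For Mulas2019, leaving out either library of the group compared gave 0, any other library except p0 gave 10 to 11 at p10 and 5 to 10 at p20, and library quality weights gave 0 at both passages. Medians of the methods' difference, 0.13 for replication and 0.088 for mitotic members, became 0.033 and -0.034 after quantile normalisation and stayed between 0.12 and 0.15 and between 0.080 and 0.11 without any 1 library. The cause of these shifts was not tested. No comparison between p10 and p20 and no interaction gained a call under any alternative.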
